A study of Homo sapiens with 6 samples.

Results

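The tubulin isotypes described here are 10 genes given as a list, the alpha tubulins TUBA1A, TUBA1B, TUBA1C and TUBA4A and the beta tubulins TUBB, TUBB2A, TUBB2B, TUBB3, TUBB4B and TUBB6, found by matching the Ensembl identifiers of the deposited tables to gene symbols. All 10 were among the 60658 listed identifiers, and all 10 reached 1 FPKM (the deposited unit, fragments scaled to transcript length and to the mapped fragments of the library) in at least 1 library, as did 17436 genes in all. The study profiled mRNA of 6 cell lines from human prostate cancer, each as a single library (6 in all), to set taxane-resistant cells beside the cells they came from. In the DU145 lineage these were the parental line DU145, its docetaxel-resistant derivative DTXR kept under 5 nM docetaxel, and CTXR, a cabazitaxel-resistant derivative of DTXR kept under 5 nM cabazitaxel. In the C4-2B lineage they were the parental line C4-2B, its docetaxel-resistant derivative TaxR under 5 nM docetaxel, and CabR, a cabazitaxel-resistant derivative of TaxR under 5 nM cabazitaxel. C4-2B belongs to the LNCaP family, and DU145 grows without androgen. The labels call all cells untreated before harvest and do not say whether the sublines are clones, and the title of the TaxR sample carries the unexplained word old.

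Alpha and beta tubulin join as a dimer, and dimers assemble into microtubules, which form the mitotic spindle. Docetaxel and cabazitaxel are taxanes, which bind beta tubulin inside the assembled microtubule and stabilise it, so that dividing cells stall. Human cells carry several genes for each tubulin, and their proteins differ mostly in the acidic tail at the carboxyl end. A raised share of the class III beta tubulin TUBB3 has often been discussed in connection with taxane resistance in carcinoma cells.

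Each library's total lay between 711766 and 818430 FPKM, with mitochondrially encoded genes holding 35.3% to 40.7% in the DU145 lineage and 17.9% to 27.9% in the C4-2B lineage. No read total is stated in the labels or tables, which leaves the depth unknown and allows no counting interval. All 8 markers of the C4-2B side (such as KLK3 and KLK2) reached 10 FPKM in C4-2B, TaxR and CabR and none did in DU145, DTXR or CTXR, while 9 of 10 markers of the DU145 side did so in each DU145-lineage library. In TaxR 9 of those 10 also reached 1 FPKM, against 2 in C4-2B and 2 in CabR. The median level in TaxR of 48 genes seen in DU145 but near 0 in C4-2B and CabR was 1.12% of their DU145 level, with quartiles of 0.651% and 1.69%.

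The coding ends that set the beta isotypes apart are shown first, because the measurements depend on telling these mRNAs from each other. Each line is the last 60 coding bases before the stop codon, 5′ to 3′ on the coding strand, from GENCODE release 29 on GRCh38. Capitals mark bases that differ from TUBB, the most abundant beta mRNA in every library, after global alignment of the whole coding sequences. Bases that stand opposite a gap in TUBB are also capitals.
TUBB: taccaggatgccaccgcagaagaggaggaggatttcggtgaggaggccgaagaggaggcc
TUBB4B: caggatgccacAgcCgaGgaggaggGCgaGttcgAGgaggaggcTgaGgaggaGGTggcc
TUBB6: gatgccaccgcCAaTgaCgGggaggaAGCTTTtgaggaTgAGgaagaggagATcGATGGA
TUBB3: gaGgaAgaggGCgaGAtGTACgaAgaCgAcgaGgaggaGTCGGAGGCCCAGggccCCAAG
TUBB2A: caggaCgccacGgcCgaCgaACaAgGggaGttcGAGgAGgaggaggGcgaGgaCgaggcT
TUBB2B: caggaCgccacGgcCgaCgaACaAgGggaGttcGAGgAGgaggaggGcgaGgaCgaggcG
In this window, with bases opposite a gap counted, 13 of 60 bases differ from TUBB in TUBB4B, 18 in TUBB2A and in TUBB2B, 22 in TUBB6 and 32 in TUBB3. Over the whole coding sequence TUBB2A and TUBB2B are 98.2% identical, and no other beta pair among the members is above 87.8%. Among the alpha members, TUBA1A, TUBA1B and TUBA1C are 95.9% to 97.2% identical over the coding sequence. TUBA4A is 84.4% to 85.7% identical to them.

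How far a read could be placed depends on such identity, which was measured as the share of coding windows that also occur in annotated transcripts of another gene. Of 100-base windows, 68.2% were shared for TUBB2A and 71.8% for TUBB2B, mostly with each other. The shares were 45.3% for TUBA1B, 26.5% for TUBA1A and 26.8% for TUBA1C. They were 10.6% for TUBB, 3.56% for TUBB4B, 3.05% for TUBA4A and 0% for TUBB6. TUBB3 stood at 95.6%, almost wholly with 1 annotated gene, ENSG00000198211, which reads through from its upstream neighbour into TUBB3 on the same strand. The levels of TUBA1A, TUBA1B and TUBA1C, of TUBB2A and TUBB2B, and of TUBB3 therefore depend on how the authors' software divided reads, and the sources used here do not state that. TUBA1A and TUBA1C also overlap on opposite strands, as do TUBA4A with STK16, TUBB2B with PSMG4 and TUBB6 with AFG3L2, and whether strand was used in counting is not stated.

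**Figure D1:**
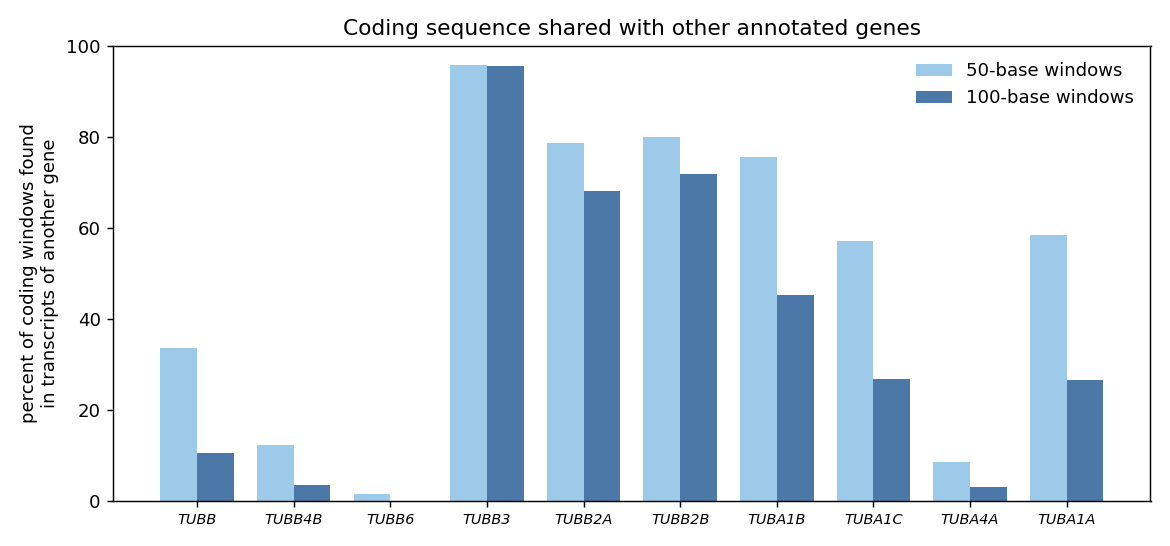
Percent of the coding windows of each member that occur in annotated transcripts of another gene, for windows of 50 and 100 bases (GENCODE release 29). TUBB3, TUBB2A and TUBB2B stand at 68.2% to 95.6% for 100-base windows, and TUBB6 at 0%.

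TUBB and TUBB4B made up most beta tubulin mRNA in every line. The minor isotype TUBB6 was a far larger part of it in the DU145 lineage than in the C4-2B lineage. TUBB3 was also a larger part in the DU145 lineage, though between the parental lines only at 5.02% for DU145 and 2.24% for C4-2B. The size rule for a call was a log2 ratio of (FPKM + 1) of at least 1 in either direction, and with 1 library per line no pair of lines has a replicate check or a p-value. Of all measured genes, 3.59% (CabR against TaxR) to 12.9% (CTXR against DU145) passed it in each of the 6 comparisons within a lineage. Among all members and these 6 comparisons, the only call was TUBB3, which fell in CabR against C4-2B. In such bulk RNA, fewer cells with an mRNA and less of it per cell cannot be told apart. The differences that did not pass were spread over both directions in the C4-2B lineage, and in CTXR 8 of 10 members were below DU145 and 9 of 10 below DTXR. The share of all measured genes below 0 was not computed, so these counts are not a result about the list. For each member, 11.1% to 42.7% of measured genes lay as far or further on its side in CTXR against DU145. In CTXR against DTXR it was 7.63% to 36.0%. The members above DU145 in CTXR, TUBB3 and TUBA1B, turned below it after scaling to one total FPKM without mitochondrially encoded genes.

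**Figure D2:**
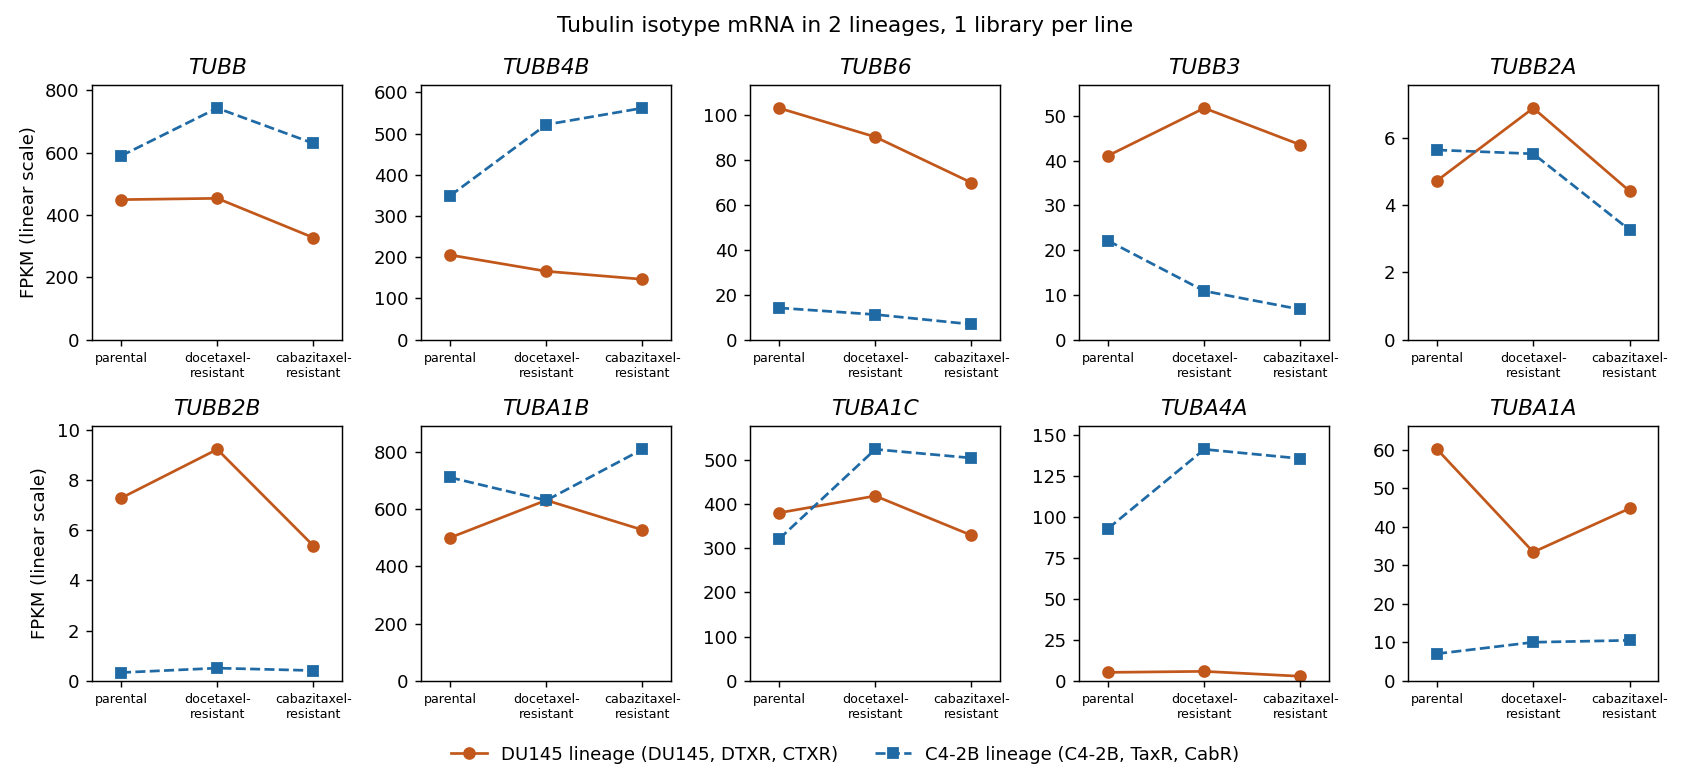
FPKM of each member in 1 library per line, along the stages parental, docetaxel-resistant and cabazitaxel-resistant, on a linear axis that starts at 0 (circles, DU145 lineage; squares, C4-2B lineage). TUBB4B lies between 146 and 205 FPKM in the DU145 lineage and between 349 and 562 FPKM in the C4-2B lineage, and TUBB6 is lowest at the cabazitaxel-resistant stage of both.

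TUBB, the widely expressed class I beta tubulin (ENSG00000196230, chromosome 6, 30720201 to 30725426, plus strand), was the most abundant beta isotype throughout. DU145 cells had 449 FPKM, DTXR cells 453 and CTXR cells 327. C4-2B cells had 589 FPKM, TaxR cells 743 and CabR cells 629. The level was thus lowest in CTXR and highest in TaxR, and the C4-2B lineage lay above the DU145 lineage at each stage. Over the 6 libraries the share of TUBB in beta tubulin FPKM varied less than its level, though not in each subline against its parent. The share was 54.7% for DU145, 58.0% for DTXR and 53.2% for CTXR, and 59.8% for C4-2B, 57.2% for TaxR and 51.8% for CabR. The log2 ratio to the parent was 0.01 for DTXR, -0.46 for CTXR, 0.33 for TaxR and 0.09 for CabR. That of CabR was -0.00289 after scaling every library to one total FPKM.

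TUBB4B, the broadly expressed class IVb beta tubulin (ENSG00000188229, chromosome 9, 137241213 to 137243707, plus strand), stood on opposite sides of its parent in the lineages. DU145 cells had 205 FPKM, DTXR cells 166 and CTXR cells 146. C4-2B cells had 349 FPKM, TaxR cells 522 and CabR cells 562. Both resistant DU145 sublines lay below their parent and both resistant C4-2B sublines above theirs, without a call. The log2 ratio to the parent was -0.31 for DTXR, -0.49 for CTXR, 0.58 for TaxR and 0.69 for CabR. Of all measured genes 6.54% lay as far or further above C4-2B in CabR as TUBB4B did. Its share of beta tubulin FPKM was 25.03% for DU145, 21.2% for DTXR and 23.8% for CTXR, and 35.4% for C4-2B, 40.2% for TaxR and 46.3% for CabR. In CabR this came near the share of TUBB, 51.8%.

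TUBB6, the class V beta tubulin (ENSG00000176014, chromosome 18, 12307669 to 12344320, plus strand), is the member whose coding sequence is least shared with other genes. DU145 cells had 103 FPKM, DTXR cells 90.2 and CTXR cells 69.8. C4-2B cells had 14.1 FPKM, TaxR cells 11.1 and CabR cells 6.79. In both lineages the parental line was highest and the cabazitaxel-resistant line lowest, and every DU145-lineage value was above every C4-2B-lineage value. The shares of all measured genes with this order or this separation were not computed. Of measured genes 36.7% passed the size rule in DU145 against C4-2B. The log2 ratio to the parent was -0.19 for DTXR, -0.56 for CTXR, -0.31 for TaxR and -0.95 for CabR. That of CabR missed the size rule and passed it, at -1.05, after scaling every library to one total FPKM. A DU145 share of 1.12% would supply 1.15 of the 11.1 FPKM of TUBB6 in TaxR, or 10.4%, and its part in the TaxR level was not tested further. As a share of beta tubulin FPKM, TUBB6 held 12.6% for DU145, 11.6% for DTXR and 11.4% for CTXR, and 1.43% for C4-2B, 0.857% for TaxR and 0.559% for CabR. AFG3L2, a subunit of a mitochondrial protease, overlaps TUBB6 on the opposite strand and had 26.1 to 71.5 FPKM over the 6 libraries.

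TUBB3, the class III beta tubulin typical of neurons (ENSG00000258947, chromosome 16, 89921392 to 89938761, plus strand), fell in CabR against C4-2B. C4-2B cells had 22.1 FPKM, TaxR cells 10.9 and CabR cells 6.74. The CabR level was 3.28-fold below that of C4-2B, with a log2 ratio of -1.58. Of all measured genes 8.87% passed the size rule in CabR against C4-2B, 6.2% as lower, and 1 of 10 members did. That count is near the share of all measured genes, so it is not a result about the list. In TaxR against C4-2B, where 8.16% of measured genes passed, TUBB3 stood at -0.96 and no member passed. It passed there at -1.02 with a pseudocount of 0.1 and at -1.11 after scaling to one total FPKM, and narrowly once the DU145 share was subtracted from TaxR. In the other lineage DU145 cells had 41.1 FPKM, DTXR cells 51.8 and CTXR cells 43.6, with log2 ratios to the parent of 0.32 for DTXR and 0.08 for CTXR. Its share of beta tubulin FPKM was 5.02% for DU145, 6.64% for DTXR and 7.09% for CTXR, and 2.24% for C4-2B, 0.836% for TaxR and 0.555% for CabR. The share thus stood above the parental share in both resistant DU145 sublines and below it in both resistant C4-2B sublines. In CTXR the TUBB3 level was 1.06-fold that of DU145 and the beta tubulin total 0.749-fold, so the higher share there came with a lower total. The readthrough gene ENSG00000198211 was near 0 in DU145 and C4-2B and had 0.915 FPKM in DTXR, 2.58 in CTXR, 0.250 in TaxR and 0.115 in CabR. With its FPKM added, the TUBB3 share in CTXR was 7.48%.

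TUBB2A (ENSG00000137267, chromosome 6, 3153669 to 3157526, minus strand) and TUBB2B (ENSG00000137285, chromosome 6, 3224261 to 3231730, minus strand), the class II beta tubulins that are abundant in brain, were minor in all lines. For TUBB2A, DU145 cells had 4.72 FPKM, DTXR cells 6.88 and CTXR cells 4.41, while C4-2B cells had 5.63 FPKM, TaxR cells 5.52 and CabR cells 3.26. For TUBB2B, DU145 cells had 7.28 FPKM, DTXR cells 9.22 and CTXR cells 5.38, while C4-2B cells had 0.327 FPKM, TaxR cells 0.505 and CabR cells 0.408. The DU145 lineage thus carried both class II mRNAs at like levels, whereas the C4-2B lineage carried TUBB2A with little TUBB2B. Summed, because reads of these copies are hard to divide, the pair stood at log2 ratios of 0.40 for DTXR and -0.27 for CTXR to DU145, and of 0.01 for TaxR and -0.58 for CabR to C4-2B. Together TUBB2A, TUBB2B, TUBB3 and TUBB6 held 19.0% to 20.3% of beta tubulin FPKM in the DU145 lineage, and 4.27% for C4-2B, 2.16% for TaxR and 1.41% for CabR.

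Among the alpha tubulins, TUBA1B (ENSG00000123416, chromosome 12, 49127782 to 49131397, minus strand) and TUBA1C (ENSG00000167553, chromosome 12, 49188736 to 49274603, plus strand), the broadly expressed alpha isotypes, held 86.1% to 96.2% of alpha tubulin FPKM. For TUBA1B, DU145 cells had 500.1 FPKM, DTXR cells 631 and CTXR cells 527, while C4-2B cells had 711 FPKM, TaxR cells 630.3 and CabR cells 809. For TUBA1C, DU145 cells had 380.3 FPKM, DTXR cells 419 and CTXR cells 329, while C4-2B cells had 321 FPKM, TaxR cells 524 and CabR cells 504. TUBA1B was the more abundant of the pair in every library, by least in TaxR. There TUBA1C held 39.1% of alpha tubulin FPKM and TUBA1B 47.0%, against 27.6% and 61.0% in C4-2B. The log2 ratios to C4-2B were 0.71 for TaxR and 0.65 for CabR in TUBA1C, and -0.17 for TaxR and 0.19 for CabR in TUBA1B. Summed with TUBA1A, the 3 near-identical mRNAs stood at 0.16 for TaxR and 0.35 for CabR.

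TUBA4A and TUBA1A set the lineages apart. TUBA4A, an alpha tubulin known from platelets, muscle and nerve (ENSG00000127824, chromosome 2, 219249711 to 219278170, minus strand), was high only on the C4-2B side. DU145 cells had 5.12 FPKM, DTXR cells 5.74 and CTXR cells 2.76. C4-2B cells had 92.8 FPKM, TaxR cells 141 and CabR cells 136. All 3 lines of the C4-2B lineage were thus above all 3 of the DU145 lineage. The share of all measured genes separated in this way was not computed. TUBA4A lay above the C4-2B level in the resistant sublines, at log2 ratios of 0.60 for TaxR and 0.54 for CabR. Its share of alpha tubulin FPKM was 0.541% for DU145, 0.526% for DTXR and 0.304% for CTXR, and 7.97% for C4-2B, 10.5% for TaxR and 9.14% for CabR. CTXR against DTXR gave TUBA4A the lowest log2 ratio of any member at that step, -0.84, and -1.03 with a pseudocount of 0.1. TUBA1A, the alpha isotype prominent in developing neurons (ENSG00000167552, chromosome 12, 49184796 to 49189324, minus strand), showed the reverse order of lineages. DU145 cells had 60.2 FPKM, DTXR cells 33.5 and CTXR cells 44.8. C4-2B cells had 7.03 FPKM, TaxR cells 10.0 and CabR cells 10.5. Both resistant DU145 sublines lay below their parent, at log2 ratios of -0.83 for DTXR and -0.42 for CTXR, and both resistant C4-2B sublines above theirs, at 0.46 for TaxR and 0.52 for CabR.

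Between the parental lines, DU145 against C4-2B, 36.7% of measured genes passed the size rule, 17.3% as higher and 19.5% as lower, and 4 of 10 members did. TUBA1A (log2 ratio 2.93), TUBB6 (2.79) and TUBB2B (2.64) were higher in DU145 and TUBA4A was lower (-3.94). The sum of TUBA1A, TUBA1B and TUBA1C stood at -0.14, but it could not test the call of TUBA1A. TUBA1A held 6.35% of alpha tubulin FPKM in DU145 and 0.604% in C4-2B, so the sum followed TUBA1B and TUBA1C. The level of TUBA1A still depends on how reads of these near-identical mRNAs were divided. The call of TUBB2B ended when it was summed with TUBB2A, at 0.90. The log2 ratio of TUBB2B also depended on the pseudocount, at 1.20 with 5 and 4.11 with 0.1. TUBB3 stood at 0.87, and at 1.15 after scaling to one total FPKM without mitochondrially encoded genes. Of the abundant isotypes, TUBB stood at -0.39, TUBB4B at -0.76, TUBA1B at -0.51 and TUBA1C at 0.24, without a call. The share of members called was close to the background, so it is not a result about the list as a whole.

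Neither the alpha nor the beta tubulin total passed the size rule in any comparison within a lineage. The summed beta tubulin genes came to 820.04 FPKM for DU145, 780.4 for DTXR and 614 for CTXR, and to 986 for C4-2B, 1299 for TaxR and 1215 for CabR. The summed alpha tubulin genes came to 948 FPKM for DU145, 1091 for DTXR and 908 for CTXR, and to 1164 for C4-2B, 1341 for TaxR and 1483 for CabR. Relative to the parent, the beta total was 0.952-fold in DTXR and 0.749-fold in CTXR, and 1.32-fold in TaxR and 1.23-fold in CabR. Both resistant DU145 sublines thus lay below their parent in beta tubulin and both resistant C4-2B sublines above theirs, also under each of the other scalings tried. The alpha total was 1.15-fold for DTXR, 0.958-fold for CTXR, 1.15-fold for TaxR and 1.27-fold for CabR. The ratio of alpha to beta FPKM, in which the scaling of a library cancels, was 1.16 for DU145, 1.40 for DTXR and 1.48 for CTXR, and 1.18 for C4-2B, 1.03 for TaxR and 1.22 for CabR. Alpha exceeded beta in FPKM in every library, and the ratio was highest in CTXR and lowest in TaxR.

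**Figure D3:**
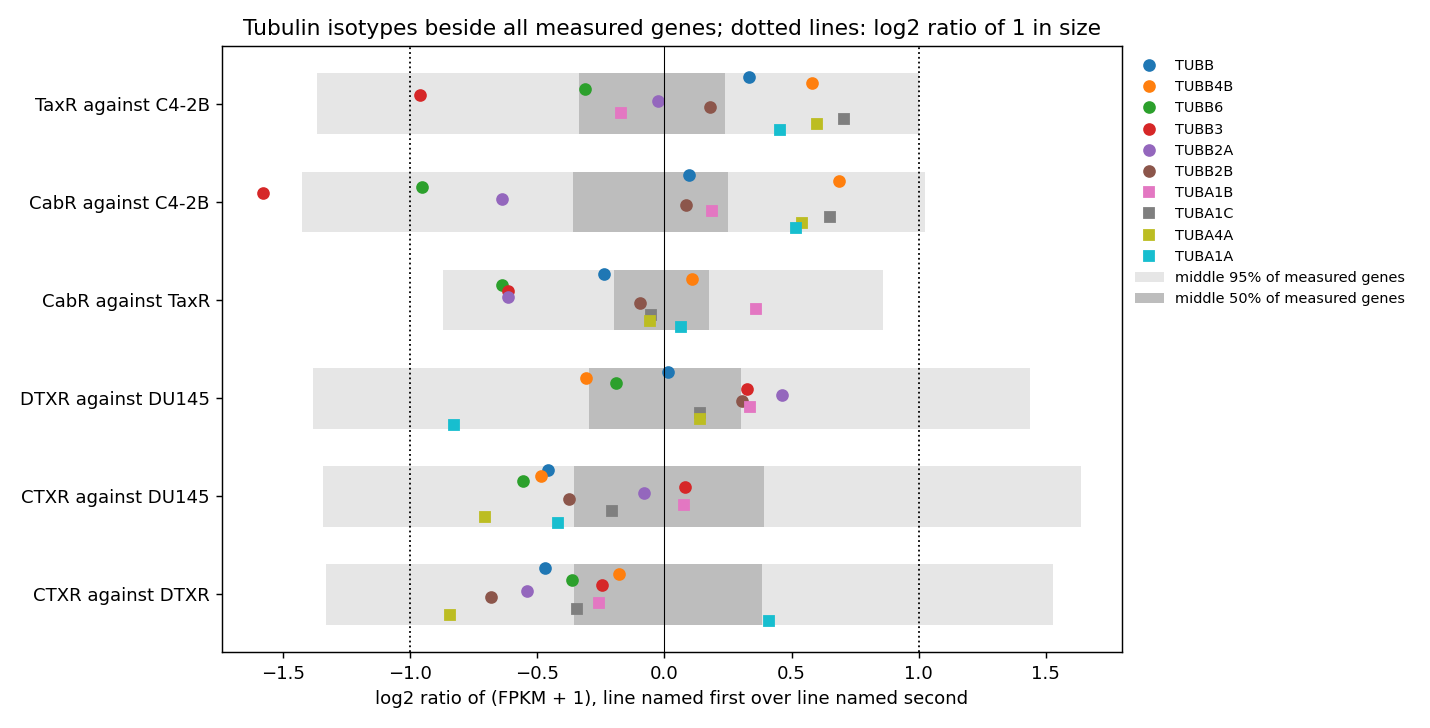
Log2 ratio of (FPKM + 1) of each member (circles, beta; squares, alpha) in the 6 comparisons within a lineage, the line named first over the line named second, on bands that hold the middle 50% and 95% of 17436 measured genes. TUBB3 in CabR against C4-2B, at -1.58, is the only point beyond a dotted line.

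In CabR against TaxR and in all comparisons of the DU145 lineage no member passed the size rule. Of measured genes 3.59% passed it in CabR against TaxR, 10.5% in DTXR against DU145, 12.9% in CTXR against DU145 and 12.5% in CTXR against DTXR. In CabR against TaxR the members with the lowest log2 ratios were TUBB6 (-0.64), TUBB3 (-0.62) and TUBB2A (-0.61), and TUBA1B had the highest (0.36). In CTXR against DTXR all 6 beta members were below 0, between -0.68 for TUBB2B and -0.18 for TUBB4B. The share of all measured genes below 0 there was not computed. The medians of the 10 members were 0.26 in TaxR and 0.14 in CabR against C4-2B, and 0.14 in DTXR and -0.40 in CTXR against DU145. The medians of all measured genes in the same comparisons were -0.00180, -0.00208, 0 and 0.

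Because selection was repeated in 2 parental lines, a limma model of stage plus lineage could be fitted to log2(FPKM + 1) over the 6 libraries, with an intensity trend, two-sided tests and Benjamini-Hochberg adjustment over 17436 genes. No member and no gene had an adjusted p under 0.05, so that 0% were called, at the docetaxel-resistant or the cabazitaxel-resistant stage against parental, or between these stages. At an unadjusted p under 0.05 there were 772 genes (4.43%) with no member, 835 genes (4.79%) with 1 member, and 416 genes (2.39%) with no member. The 1 member was TUBB6, lower in all 4 resistant libraries than in their parents, with a limma log2 difference of -0.75 ± 0.25 (SE) at the cabazitaxel-resistant stage and an adjusted p of 0.864. TUBB3 stood at -0.75 ± 0.41 (SE) there, lower in 2 of 4 resistant libraries than in the parent, with a limma adjusted p of 0.864. CabR and CTXR descend from TaxR and DTXR, so the libraries are not independent.

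Other tubulin genes added to the picture of the lineages. TUBA3C, TUBA3D and TUBA3E, near copies of an alpha tubulin known mainly from testis, were listed at 0 in DU145, DTXR and CTXR. For TUBA3D, C4-2B cells had 21.9 FPKM, TaxR cells 24.8 and CabR cells 13.9. For TUBA3E, C4-2B cells had 8.93 FPKM, TaxR cells 8.87 and CabR cells 7.07. For TUBA3C, C4-2B cells had 1.36 FPKM, TaxR cells 0.283 and CabR cells 0.288. This group was thus listed above 0 on the C4-2B side alone. TUBA8, an alpha tubulin of muscle and testis, stayed between 0.591 FPKM in C4-2B and 2.65 FPKM in CTXR. TUBB4A, the class IVa beta tubulin of brain, was lower in DTXR than in DU145 and higher in CTXR than in DTXR, with 7.08 FPKM in DU145, 2.83 FPKM in DTXR and 10.8 FPKM in CTXR. TUBB8 and its copy TUBB8B, beta tubulins known from the oocyte, were also higher in CTXR than in DTXR. TUBB8 had 0.848 FPKM in DU145, 0.390 FPKM in DTXR and 2.68 FPKM in CTXR, and TUBB8B had 1.78 FPKM in DU145, 0.356 FPKM in DTXR and 4.38 FPKM in CTXR. In DTXR against DU145, 2 of the 3 measured genes of this list of other beta tubulins were lower by the size rule. There 10.5% of measured genes passed in either direction. All 3 were higher in CTXR than in DTXR, where 7.29% of measured genes were. TUBB8 reached 1 FPKM in CTXR alone, so it counted as measured only through the library where it was high. The count of 3, and that of 2 of 3 in DTXR against DU145, are therefore not results about the list. The summed beta tubulin pseudogenes were likewise lowest in DTXR and highest in CTXR within this lineage, at 8.12 FPKM in DU145, 4.79 FPKM in DTXR and 14.9 FPKM in CTXR, and their part in these values was not tested.

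Of gamma, delta and epsilon tubulin, which serve microtubule nucleation and centrioles, 1 of 4 genes was lower in TaxR than in C4-2B and 2 of 4 were higher in CTXR than in DTXR. Of all measured genes 8.16% passed the size rule in either direction in TaxR against C4-2B, and 7.29% were higher in CTXR than in DTXR. The gene lower in TaxR was TUBE1, epsilon tubulin, for which C4-2B cells had 14.6 FPKM, TaxR cells 5.19 and CabR cells 8.43. The genes higher in CTXR were TUBD1, delta tubulin, with 8.26 FPKM in DU145, 5.70 FPKM in DTXR and 17.5 FPKM in CTXR, and TUBG2, a gamma tubulin, with 13.03 FPKM in DU145, 10.3 FPKM in DTXR and 23.0 FPKM in CTXR. TUBG1, the main gamma tubulin, stayed between 60.3 and 101 FPKM. Of 9 genes of the gamma tubulin ring complex, MZT2A was higher in CTXR than in DU145, with 57.2 FPKM in DU145, 80.4 FPKM in DTXR and 118 FPKM in CTXR. TUBGCP4 was lower in CTXR than in DTXR, with 13.5 FPKM in DU145, 16.6 FPKM in DTXR and 7.63 FPKM in CTXR. Each was 1 of 9 genes, which is near the background of 12.9% for CTXR against DU145 and 12.5% for CTXR against DTXR.

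The machinery that folds tubulin, comprising the chaperonin CCT, prefoldin and the tubulin cofactors, had 19 of 20 listed genes matched, and all 19 were measured. None passed the size rule in TaxR, CabR, DTXR or CTXR against the parent, with median log2 ratios of 0.19 for DTXR, 0.07 for CTXR, 0.24 for TaxR and 0.29 for CabR. Over all measured genes 10.5% passed in DTXR, 12.9% in CTXR, 8.16% in TaxR and 8.87% in CabR. The only call was the prefoldin subunit gene PFDN4, higher in CTXR than in DTXR (32.3 FPKM in DU145, 22.9 FPKM in DTXR and 53.1 FPKM in CTXR), which is 1 of 19 genes at a step where 12.5% of measured genes passed. TTC5 encodes the factor that recognises the first residues of nascent tubulin and starts decay of its mRNA when free dimers are in excess. For TTC5 itself, DU145 cells had 4.52 FPKM, DTXR cells 8.65 and CTXR cells 9.37, while C4-2B cells had 6.03 FPKM, TaxR cells 9.85 and CabR cells 9.004. All 4 resistant libraries were above their parents, at log2 ratios of 0.81 for DTXR, 0.91 for CTXR, 0.63 for TaxR and 0.51 for CabR, without a call. The share of all measured genes above the parent in all 4 was not computed.

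Of 17 measured genes for enzymes that modify tubulin, none passed the size rule in TaxR or CabR against C4-2B, where 8.16% and 8.87% of measured genes did. In DTXR the tubulin glycine ligase TTLL3 was lower than in DU145, with 21.2 FPKM in DU145, 6.73 FPKM in DTXR and 12.3 FPKM in CTXR. In CTXR against DU145 the detyrosinating enzyme VASH2 was higher, with 1.01 FPKM in DU145, 0.713 FPKM in DTXR and 3.79 FPKM in CTXR. The alpha tubulin acetyltransferase ATAT1 was also higher in CTXR, with 3.90 FPKM in DU145, 5.50 FPKM in DTXR and 9.43 FPKM in CTXR. The deglutamylase AGTPBP1 was lower in CTXR than in DU145, with 27.8 FPKM in DU145, 21.8 FPKM in DTXR and 11.8 FPKM in CTXR. These calls were 1 of 17 genes in DTXR and 3 of 17 in CTXR, beside backgrounds of 10.5% and 12.9%.

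The genes whose log2(FPKM + 1) followed a member most closely over the 6 libraries were ranked among 9724 coding genes. These are descriptions over 6 points that share a lineage contrast, and the highest of many correlations is high by selection. TUBB3 was followed by CTH (Pearson r 0.996), DYNC1H1 (0.995), the heavy chain of the microtubule motor dynein, and RAD54B (0.993). TUBB6 was followed by C2orf74 (0.999) and ANKRD10 (0.997), among others. TUBB was followed by HNRNPH2 (0.999), OMA1 (0.997) and UBE2E2 (0.995).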

How the data were processed

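Stranded mRNA libraries were made from TRIzol-extracted RNA, per the labels' protocols. The authors deposited 1 table of FPKM per library, per the file headers. HISAT, StringTie, Cuffnorm and GRCh38 are listed, without versions, per the submitters' processing notes. Which annotation was used, whether strand was used for counting and whether libraries were scaled jointly is not given in the sources used here. FPKM are estimates and not counts, so no count model was fitted, and an exact 0 may be a failed estimate.

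Of 60658 identifiers, 56550 matched a gene symbol table and 57047 GENCODE release 29 (GRCh38), the source of coordinates, biotypes and transcript sequences. The deposited values were not rescaled. Ratios are on the log2(FPKM + 1) scale, which understates changes of low genes. Measured genes reached 1 FPKM in at least 1 library. Isotype shares are percents of the summed FPKM of 9 alpha or 10 beta coding genes. The members and gene lists were chosen with earlier results of these data known. All members were named. Of the other lists, members past the size rule within a lineage (at most 4 per list) and tubulin genes at 1 FPKM were named, as were TTC5 and the 3 genes most correlated with TUBB3, TUBB6 and TUBB, of which 1 is not reported here.

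Simulated data of 17436 genes had independent noise in each library, whereas the real libraries are related by descent. On the simulated data, limma recovered 7 of 100 genes changed by 1 on the log2 scale and 91 of 100 changed by 2 at the docetaxel-resistant stage. There it also called 15 of 17236 unchanged genes. For the difference between lineages it recovered 0 and 1 of 100. Alternatives covered pseudocounts, library scalings, filters, the share totals and leaving out each library. Python 3.11.15 with numpy 2.4.6, pandas 2.3.3, biopython 1.88 and matplotlib 3.10.9 and R 4.3.3 with limma 3.58.1 were used.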

Additional observations from a re-analysis of the deposited data

Results flagged for a closer look

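Members whose resistant sublines both stood on one side of the parent in the DU145 lineage and both on the other side in the C4-2B lineage were TUBB4B, TUBB3 and TUBA1A. The share of all measured genes that meet this rule of direction was not computed, so their number is not a result about the list. A limma interaction of lineage and resistance was chosen after seeing the data. It was fitted to all 6 libraries with the resistant sublines of a lineage taken as replicates. CabR descends from TaxR and CTXR from DTXR, so its SE and p measure the spread between a subline and its descendant, not between independent selections. The members were picked by direction in these same values, so the p-values are not independent support. The quantity tested was the difference, DU145 lineage minus C4-2B lineage. For TUBB4B it was -1.03 ± 0.25 (SE) on the log2 scale, with a limma p of 0.0158 and an adjusted p of 0.421. For TUBA1A it was -1.11 ± 0.37 (SE), with a limma p of 0.0396 and an adjusted p of 0.501. For TUBB3 it was 1.47 ± 0.48 (SE), with a limma p of 0.0392 and an adjusted p of 0.500. None of the 3 passed after adjustment over 17436 genes, of which none did and 1660 (9.52%) had an unadjusted p under 0.05. The log2 ratio of TUBB3 in CTXR against DU145, 0.08, was -0.06 after scaling to one total FPKM without mitochondrially encoded genes, so its opposite direction depends on that scaling.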

How the results depend on the processing

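Of 580 member log2 ratios recomputed under the alternatives, 556 kept their side of the size rule, 24 passed it newly and no called one changed sign. The 24 include ratios that passed only because the rule was lowered to 1.5 times. The sums of near-identical paralogs, under which fewer units passed in DU145 against C4-2B, are not among the 580. The count of members past the rule in TaxR against C4-2B was 0, and 1 (TUBB3) with pseudocount 0.1, with libraries scaled to one total FPKM or with the DU145 share subtracted. In CabR against C4-2B it was 1, and 2 (TUBB6 added) with a pseudocount of 0.1 or the same total. In CTXR against DTXR it was 0, and 1 (TUBA4A) with a pseudocount of 0.1. With a rule of 1.5 times the counts were 3 in TaxR and 5 in CabR against C4-2B and 3 in CabR against TaxR. They were 1 in DTXR and 1 in CTXR against DU145, and 2 in CTXR against DTXR. In DU145 against C4-2B the count at the size rule was 4, and 2 of 7 with near-identical paralogs summed. It was 5 (TUBB3 added) with one total FPKM without mitochondrially encoded genes or with one upper quartile, and 6 with the rule of 1.5 times. The share of all measured genes past the rule of 1.5 times was not computed, so counts under it are not a result about the members. The same total FPKM moved the median log2 ratio of all measured genes to -0.12 in TaxR against C4-2B and to -0.15 in DU145 against C4-2B, and leaving out mitochondrially encoded genes moved the last to 0.17. The cause of these moves was not tested. The largest move of an isotype share was 1.18 times, TUBB2B in TaxR with the DU145 share subtracted. In limma no member was called under any setting, and no gene was with docetaxel-resistant and cabazitaxel-resistant lines taken as 1 level (1165 at an unadjusted p under 0.05). Genes called with a pseudocount of 0.1 were 1 at the cabazitaxel-resistant stage and 2 between stages, against 0. For the difference between lineages 582 were called with no filter, and between 0 and 442 with 1 resistant library left out (442 without DTXR, 344 without CTXR), against 0. Sublines were set against their own parent through the lineage term of limma. No paired analysis by replicate number was possible because the labels give none. Unknown depth limits all values of low isotypes such as TUBB2B.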
